A study of Bos taurus with 9 samples.

Results

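The genes described here encode the machinery that starts transcription: the subunits of RNA polymerases I, II and III, the general transcription factors and the Mediator complex. They were taken as every row whose symbol begins with POLR1, POLR2, POLR3, GTF2 or GTF3, or is a TAF or MED name with a number, in any of the 9 expression files. The rule found 103 genes, each with a single row, among 16129 genes that all 9 files hold. Both sets of files name 94 of them, the morula files alone name 5 and the 8-cell files alone name 4, and rows were joined by gene identifier. One of the 5, POLR2K, carries a locus name in the 8-cell files.

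The embryos were bovine (Bos taurus) clones, each built by fusing a body cell with an oocyte freed of its own chromosomes (somatic cell nuclear transfer). Per the labels' protocols, every donor cell was a fibroblast from 1 female Holstein fetus, so a single genotype underlies the cloned embryos described there. The 3 KDM6A morula libraries came from embryos injected with mRNA for wild-type bovine KDM6A 1 h after activation, and the 3 control morula libraries from cloned embryos that received no injection at all. There was therefore no group injected with another mRNA. Each morula library was a pool of 5 embryos taken on day 5. The 3 libraries of 8-cell cloned embryos were taken over from an earlier series, so wherever they are compared with morulae the effects of stage and of series cannot be told apart. Whether the pools of a group came from different oocyte collections is not stated in the labels. The p-values below therefore reflect only how far these libraries scattered, and that scatter may be partly technical.

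RNA polymerase I makes the large ribosomal RNA precursor, polymerase II makes messenger RNA, and polymerase III makes transfer RNA, the 5S ribosomal RNA and other short RNAs. None of them finds a promoter alone. TFIID, built from the TATA-binding protein and its associated factors (TAFs), marks polymerase II promoters, TFIIA, TFIIB, TFIIE, TFIIF and TFIIH complete the assembly, and Mediator carries signals from bound activators to the polymerase. SL1 does the work of TFIID for polymerase I and TFIIIC for many polymerase III genes. Cattle embryos live at first on transcripts stored in the oocyte, and their own genome becomes broadly active around the 8-cell stage.

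Values are FPKM, fragment counts scaled for transcript length and for the fragments of the library. Levels of different genes can be compared only roughly, since gene models and the division of reads between overlapping genes were not analysed here. Sequencing depth is unknown, and precision is read from the 3 libraries of a group. Summed FPKM ran from 927096 to 1022423 in control morulae, from 913646 to 936537 in KDM6A morulae and from 820346 to 860798 in 8-cell embryos. The 8-cell libraries thus lay below all morula libraries. Embryo markers (8 genes, among them POU5F1 and CDH1) were all at 1 FPKM or more in the 6 morula libraries, and 6 of 8 were in the 8-cell libraries, where the keratins KRT8 and KRT18 stood below it. The KDM6A gene gave 10.72, 13.86 and 10.74 FPKM in control morulae, 35.65, 87.58 and 79.44 in injected morulae and 6.13, 9.41 and 10.73 in 8-cell embryos. The injected libraries all stood above the controls, with replicate 1 the lowest of them (exact two-sided permutation p = 0.1, the smallest that 3 against 3 allows). Transcripts stored in the oocyte moved with stage. The summed level of 14 such genes was 503, 23.6 and 120 FPKM in control replicates 1 to 3, 198, 116 and 138 in KDM6A morulae and between 3872 and 9187 in 8-cell embryos. From 12 to 14 of the 14 were at 1 FPKM or more in an 8-cell library and 7 to 10 in a morula library. The summed level of 10 donor fibroblast genes ran from 98.3 to 154 FPKM in controls, from 65.8 to 111 in KDM6A morulae and from 15.2 to 63.7 in 8-cell embryos. FN1 alone made most of the morula sums, at 89.07, 123.67 and 86.2 FPKM in controls and 0.19, 1.5 and 0.16 in 8-cell embryos. Other genes of that list had their higher mean in 8-cell embryos, such as LUM (1.36 against 12.3 in controls and 8-cell embryos), COL1A1 (0.53 against 2.35) and VIM (0.337 against 1.83). Replicate 2 weighed most in these 8-cell means. The 8-cell libraries gave 2.21, 29.11 and 5.59 FPKM for LUM, 1.06, 5.09 and 0.91 for COL1A1 and 0.8, 2.93 and 1.77 for VIM. Of the 10, 3 to 4 were at 1 FPKM or more in a control library, 3 to 5 in a KDM6A library and 3, 8 and 3 in the 8-cell libraries. That of 7 cumulus and granulosa genes ran from 9.77 to 11.5, from 5.73 to 9.51 and from 9.26 to 31. The fibroblast collagen COL3A1 was at or near 0 in all but 8-cell replicate 2, at 2.48 FPKM. The part of these markers in the results below was not tested.

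Most of the transcription machinery was expressed in every library. Between 97 and 98 of the 103 genes reached 1 FPKM in a control library, 97 to 99 in a KDM6A library and 92 to 95 in an 8-cell library. Together they held 0.871% to 0.943% of summed FPKM in control morulae, 0.923% to 1.045% in KDM6A morulae and 1.17% to 1.312% in 8-cell embryos, so that the 8-cell libraries stood above all morula libraries. The summed FPKM of control replicate 1 also counts 3038 rows without a gene identifier. Abundant genes weigh most in these shares. POLR2J, MED10, GTF2H2 and the uncertain TAF9 row were higher in 8-cell embryos, while others such as POLR2H and POLR2L were higher in morulae. The median gene was at 18.42 to 20.17 FPKM in control libraries, at 20.93 to 24.25 in KDM6A libraries and at 19.08 to 23.98 in 8-cell libraries, and here stages overlapped.

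Levels differed widely among subunits of 1 enzyme. The 5 highest means over 9 libraries belonged to small polymerase subunits, namely POLR2F (860 FPKM), which all 3 polymerases share, POLR2J (791), POLR2G (787), POLR3K (633) and POLR2I (442). POLR2A, the largest subunit of polymerase II and the bearer of its C-terminal repeat domain, was among the 5 lowest. It stood at 0.61, 0.32 and 0.83 FPKM in control morulae, 0.57, 1.39 and 0.86 in KDM6A morulae and 0.81, 0.62 and 1.22 in 8-cell embryos. Its partner in the active site, POLR2B, was at 71.9 ± 1.86 FPKM (SD, n = 3, as in all means here) in controls, 78.6 ± 7.11 in KDM6A morulae and 81.7 ± 2.92 in 8-cell embryos. The catalytic pairs of the other enzymes were less uneven. POLR1A and POLR1B stood at 3.46 ± 0.475 and 16.1 ± 1.85 FPKM in controls, and POLR3A and POLR3B at 6.79 ± 1.23 and 9.84 ± 0.888. The gene model behind the POLR2A row was not analysed here, so its level relative to POLR2B is uncertain. The other 4 of the 5 lowest were GTF3C4, a TFIIIC subunit (0.258 FPKM over 9 libraries), GTF2IRD2, a TFII-I relative (0.273), MED25 of the Mediator tail (0.623) and TAF6, a histone-fold subunit of TFIID (0.839).

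**Figure D1:**
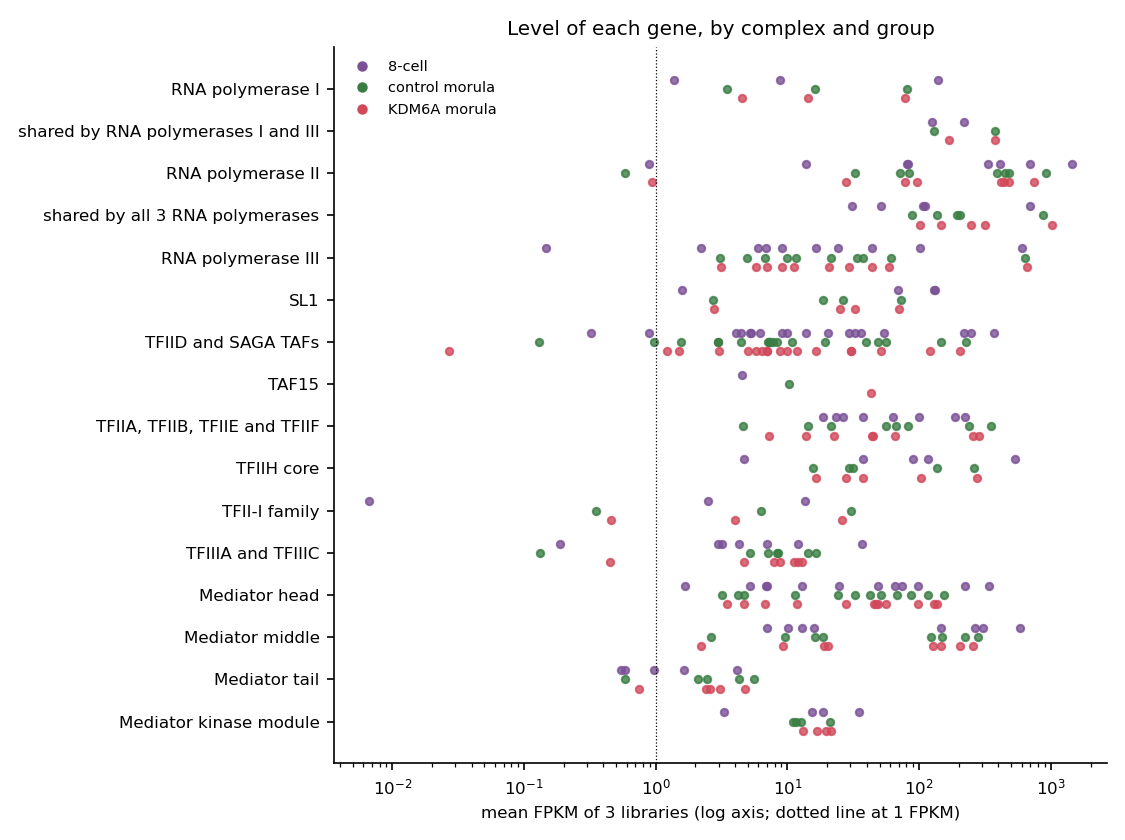
Mean FPKM of each gene on a log axis, by complex, with 1 point per gene and group (mean of 3 libraries), and a dotted line at 1 FPKM. Polymerase II and the shared polymerase subunits hold the highest levels, POLR2A is the polymerase II point below 1 FPKM in all 3 groups, and Mediator tail and kinase module genes sit low.

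The comparison of control morulae with 8-cell embryos asks how the machinery changes as the cloned embryo moves past genome activation. Of 98 genes tested, 26 (26.5%) were higher and 28 (28.6%) lower in control morulae by limma at an adjusted p under 0.05. Among all 10048 genes tested 42.7% were called higher and 27.1% lower, so the share higher lay below the background and the share lower near it. In either direction 54 (55.1%) were called against 69.8% of all genes, and 62.2% against 72.3% had an unadjusted p under 0.05. The groups of 3 did not overlap in 36 genes higher and 32 lower, where the background was 45.4% and 29.1%, or 74.5% in all. The median log2 fold change was 0.19 over the 98 genes and 0.35 over all genes tested. That general shift depends on the scaling, since quantile normalization put the median of all genes at 0.03 and median-of-ratios scaling at 0.10. With quantile normalization 18 of the 98 genes (18.4%) were called higher and 32 (32.7%) lower, against 35% and 34% of all genes under the same scaling. With median-of-ratios scaling they were 21 (21.4%) and 34 (34.7%), against 36.5% and 32.9%. Under both scalings the share lower was thus near the background and the share higher below it. No called gene changed sign under any alternative. The 5 genes below the filter of 1 FPKM in 3 of 6 libraries, MED25, POLR2A, GTF2IRD2, TAF6 and GTF3C4, were not tested. FPKM is relative to the RNA of the library, and in pooled embryos fewer cells expressing a gene and less of its RNA per cell cannot be told apart.

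**Figure D2:**
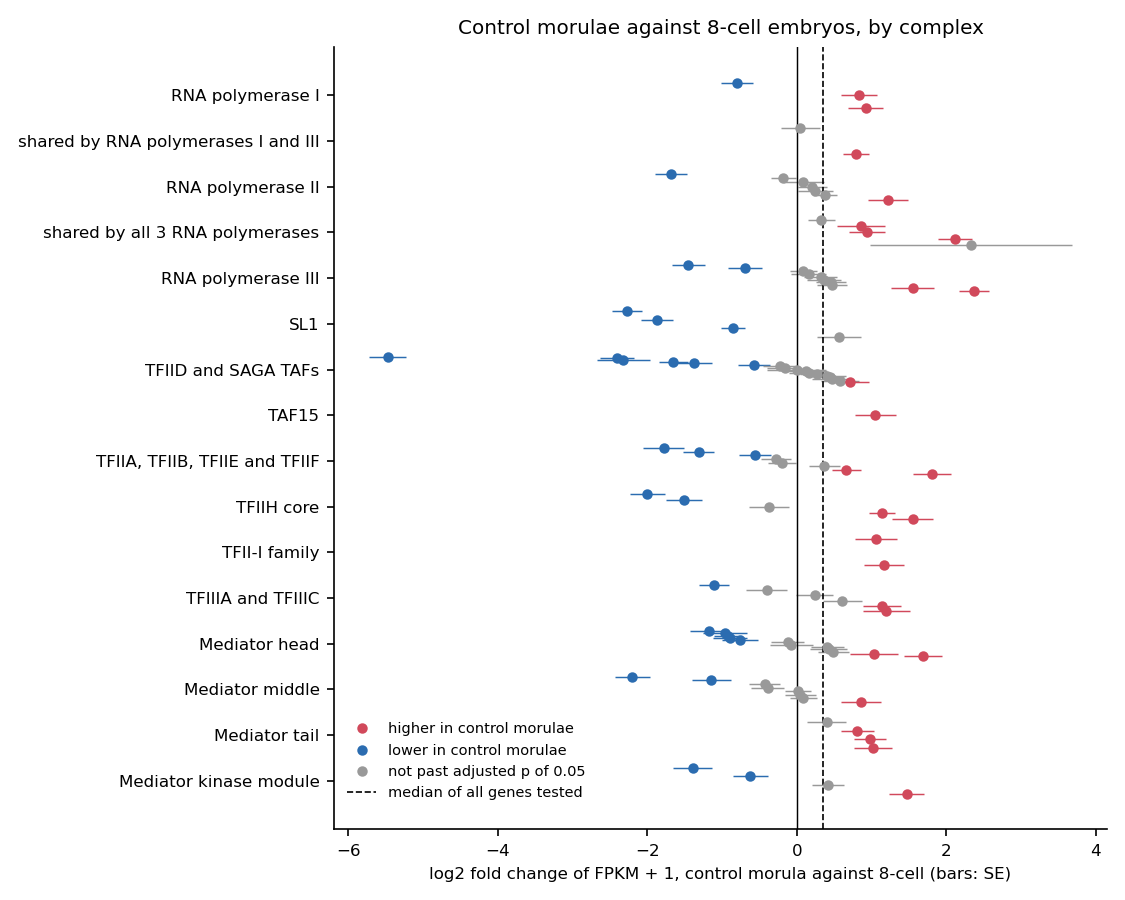
Log2 fold change of FPKM + 1 between control morulae and 8-cell embryos with its SE, 1 point per tested gene, by complex. Coloured points passed a limma adjusted p of 0.05, the dashed line is the median of all genes tested (0.35), and TAF9 is the leftmost point at -5.47.

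Subunits of the polymerases moved both ways, where 42.7% of all genes tested were called higher and 27.1% lower. Of the 3 genes of polymerase I alone, POLR1A and POLR1B, its 2 large subunits, were higher in morulae and POLR1E, which binds initiation factors, was lower. POLR1A was at 3.69, 3.77 and 2.91 FPKM in control morulae against 1.94, 0.96 and 1.22 in 8-cell embryos, and POLR1B at 15.55, 18.22 and 14.67 against 8.44, 6.70 and 11.13. Groups did not overlap for either (limma adjusted p = 0.00619 and 0.0113). Both calls were lost under quantile normalization (adjusted p = 0.0747 and 0.0585), and that of POLR1B also under median-of-ratios scaling (0.0524) and without control replicate 2 (0.0504). POLR1E was at 100.60, 62.14 and 81.23 FPKM against 145.18, 122.88 and 152.17, again without overlap (log2 fold change -0.80, SE 0.214, limma adjusted p = 0.00726). POLR1D, a small subunit that polymerases I and III share, was 1.72-fold higher in morulae at 376 ± 12.4 FPKM against 219 ± 30.5 (adjusted p = 0.00232). Its assembly partner POLR1C was not called, at 129.8 ± 36.8 against 125.6 ± 35.2.

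Among 7 tested genes of polymerase II alone, POLR2J was lower and POLR2M higher in morulae, against 27.1% and 42.7% of all genes. POLR2J, which pairs with POLR2C in the assembly core, stood at 538.71, 355.81 and 458.45 FPKM in control morulae against 1348.19, 1733.23 and 1248.70 in 8-cell embryos. All 8-cell libraries were above all morula libraries, a 3.20-fold difference (log2 fold change -1.68, SE 0.21, limma adjusted p = 7.62e-05). POLR2C itself was at 84.0 ± 18.9 against 80.5 ± 25.9 FPKM and was not called. The human POLR2J gene has near-identical copies, and how reads shared by such copies were assigned was not analysed here, which limits the POLR2J difference. POLR2M, known as Gdown1, which binds the polymerase and hinders initiation without Mediator, was at 32.8 ± 5.42 FPKM against 13.9 ± 4.42 (log2 fold change 1.22, adjusted p = 0.00237). POLR2B, POLR2D, POLR2G and POLR2I were not called.

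Of the 5 subunits that all 3 polymerases share, 3 were called higher and none lower, and 2 were called higher under each of the 3 rescalings, where 42.7% of all genes were called higher before rescaling. POLR2H had the largest fold change of the called ones, with 153.69, 120.48 and 132.37 FPKM in control morulae and 25.29, 41.66 and 26.09 in 8-cell embryos. Groups lay far apart, with a 4.37-fold difference (log2 fold change 2.12, SE 0.23, limma adjusted p = 3.39e-05). POLR2L was higher at 204 ± 41.7 against 107 ± 29.2 FPKM (adjusted p = 0.00603). POLR2E was called at 192 ± 49.4 against 111 ± 53.3 although its groups overlapped, and the call ended on omitting control replicate 1, control replicate 3, 8-cell replicate 2 or 8-cell replicate 3, under all 3 rescalings and with no filter (adjusted p up to 0.119). POLR2K was listed at 99.64, 0 and 55.36 FPKM in the 8-cell libraries and at 81.51 to 100.19 in controls, so no fold is given for it. The summed level of the 5 subunits was 1485.5 ± 174.7 FPKM in controls and 988.8 ± 189.8 in 8-cell embryos, from 1284.0 upward in the former and up to 1207.7 in the latter.

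Polymerase III showed an exchange between 2 paralogs. POLR3G and POLR3GL are alternative versions of 1 subunit that links the initiation subcomplex to the core, and POLR3G is the one known from pluripotent cells. POLR3G was at 48.99, 30.95 and 31.92 FPKM in control morulae and at 93.70, 98.96 and 111.20 in 8-cell embryos (log2 fold change -1.45, SE 0.219, limma adjusted p = 0.000249). POLR3GL was at 4.60, 5.11 and 5.07 FPKM in control morulae and at 0.17, 0.23 and 0.04 in 8-cell embryos (log2 fold change 2.37, SE 0.203, adjusted p = 9.15e-06). POLR3GL passed the expression filter only through the control libraries, where it is high, so its adjusted p is no independent support for the difference. The 2 genes thus moved in opposite directions without overlap, although POLR3G stayed the more abundant in every library. POLR3GL made up 12.2% ± 3.1 of their summed FPKM in controls, 12.1% ± 2.84 in KDM6A morulae and 0.150% ± 0.102 in 8-cell embryos. POLR3C, a neighbour of POLR3G in the enzyme, was 3.09-fold higher in morulae at 21.4 ± 3.42 against 6.92 ± 3.06 FPKM (adjusted p = 0.000923). POLR3C overlaps RNF115 in the RefSeq annotation, which was also higher, at 33.0 ± 2.22 against 16 ± 4.83 FPKM. POLR3B, the second-largest subunit, was lower at 9.84 ± 0.888 against 16.6 ± 3.32 (adjusted p = 0.0203), a call that ended when control replicate 2, control replicate 3 or 8-cell replicate 3 was left out (0.0648 to 0.0707). Its partner POLR3A was not called at 6.79 ± 1.23 against 5.93 ± 0.56, nor was POLR3K.

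SL1, the promoter selectivity factor of polymerase I, was lower in morulae in 3 of its 4 tested TAFs, against 27.1% of all genes. TAF1A was at 32.77, 21.11 and 26 FPKM in control morulae against 124.28, 141.80 and 124.92 in 8-cell embryos, a 4.89-fold difference (log2 fold change -2.27, SE 0.206, limma adjusted p = 1.27e-05). TAF1B was at 22.64, 15.12 and 17.80 against 70.56, 62.42 and 75.64 (-1.87, adjusted p = 4.21e-05), and TAF1D at 73.1 ± 2.87 against 132 ± 4.75 (-0.85, adjusted p = 0.00114). No library of these 3 genes overlapped between stages. TAF1C, the low member, was not called at 2.73 ± 0.753 against 1.57 ± 0.866. The summed level of the 4 was 121.0 ± 10.3 FPKM in controls, 129.9 ± 18 in KDM6A morulae and 333.8 ± 9.87 in 8-cell embryos.

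TFIID and the related coactivator SAGA share several TAFs. Of 17 TAFs tested here, 6 were lower in morulae (TAF3, TAF4B, TAF5, TAF7L, TAF9 and TAF11), 1 was higher (TAF10) and 10 were not called. The background over all genes tested was 27.1% lower and 42.7% higher. TAF4B, an oocyte and germ line version of the scaffold subunit TAF4, was at 2.89, 3.07 and 3.00 FPKM in control morulae and at 24.23, 18.62 and 17.91 in 8-cell embryos, 6.78-fold apart (log2 fold change -2.40, SE 0.227, limma adjusted p = 1.6e-05). TAF4 was not called at 7.20 ± 2.13 against 6.21 ± 1.31. TAF5, the WD40 subunit of the TFIID core, was at 10.36, 11.18 and 11 against 34.56, 34.36 and 39.49 (-1.65, SE 0.194, adjusted p = 5.5e-05). Morula libraries of TAF5 were tightly grouped and all below the 8-cell libraries. TAF3, which binds a methyl mark of active promoters, was lower at 2.95 ± 0.749 against 9.08 ± 0.471 (adjusted p = 0.000595). TAF7L, a germ line version of TAF7, was at 4.01, 9.05 and 2.48 FPKM in 8-cell embryos and listed at 0.32, 0.07 and 0 in control morulae (log2 fold change -2.32, adjusted p = 0.000268). TAF7L passed the expression filter only through the 8-cell libraries, so its adjusted p is no independent support for the difference.

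TAF9, a histone-fold subunit of both TFIID and SAGA, showed the widest difference of the 98 genes. It stood at 9.24, 6.45 and 6.26 FPKM in control morulae, 7.59, 9.10 and 13.01 in KDM6A morulae and 473.90, 269.70 and 373.16 in 8-cell embryos. The stages were 50.9-fold apart in control morulae (log2 fold change -5.47, SE 0.248, limma adjusted p = 4.78e-07). TAF9 shares its locus with AK6, an adenylate kinase gene, in the RefSeq annotation of another build. The AK6 row moved the other way, at 980.13, 838.81 and 1057.07 FPKM in control morulae, 739.68, 769.47 and 713.50 in KDM6A morulae and 656.59, 606.80 and 522.30 in 8-cell embryos (log2 fold change 0.69, adjusted p = 0.00581). AK6 was not called under median-of-ratios scaling (0.41), nor in KDM6A morulae against 8-cell embryos (0.32, adjusted p = 0.106). The sum of both rows was 966.0 ± 110.9 FPKM in controls, 750.8 ± 26.2 in KDM6A morulae and 967.5 ± 141.5 in 8-cell embryos. TAF9 held 0.589% to 0.934% of that sum in controls, 1.02% to 1.79% in KDM6A morulae and 30.8% to 41.9% in 8-cell embryos. The division of reads between these rows was not analysed here, so the level of TAF9 in either stage is uncertain.

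TAF10, a histone-fold partner found in TFIID and SAGA, was called higher in morulae at 38.45, 64.89 and 42.84 FPKM against 24.01, 37.03 and 26.19 (log2 fold change 0.71, limma adjusted p = 0.03). Control replicate 2 was the highest, and without it the adjusted p was 0.138. Omitting control replicate 3 or 8-cell replicate 1 or 3 (0.057 to 0.0845), having no filter (0.0744), quantile normalization (0.104), rescaling to TPM (0.0958) or median-of-ratios scaling (0.163) also ended the call of TAF10. TAF10 overlaps ILK, which was higher as well at 7.87 ± 2.61 against 0.297 ± 0.214 FPKM. TAF11 was called lower at 146 ± 27.6 against 218 ± 47.8 (adjusted p = 0.0381), and that call ended when control replicate 2, control replicate 3 or 8-cell replicate 3 was left out, and with no filter (up to 0.153). TAF1, the largest subunit of TFIID, was not called at 7.76 ± 1.91 against 5.31 ± 1.19 FPKM (adjusted p = 0.137). TAF15, an RNA-binding protein of the FET family, was higher in control morulae at 10.3 ± 2.38 against 4.5 ± 1.45 (adjusted p = 0.00685), with 0.115 when all 9 libraries entered 1 fit.

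**Figure D3:**
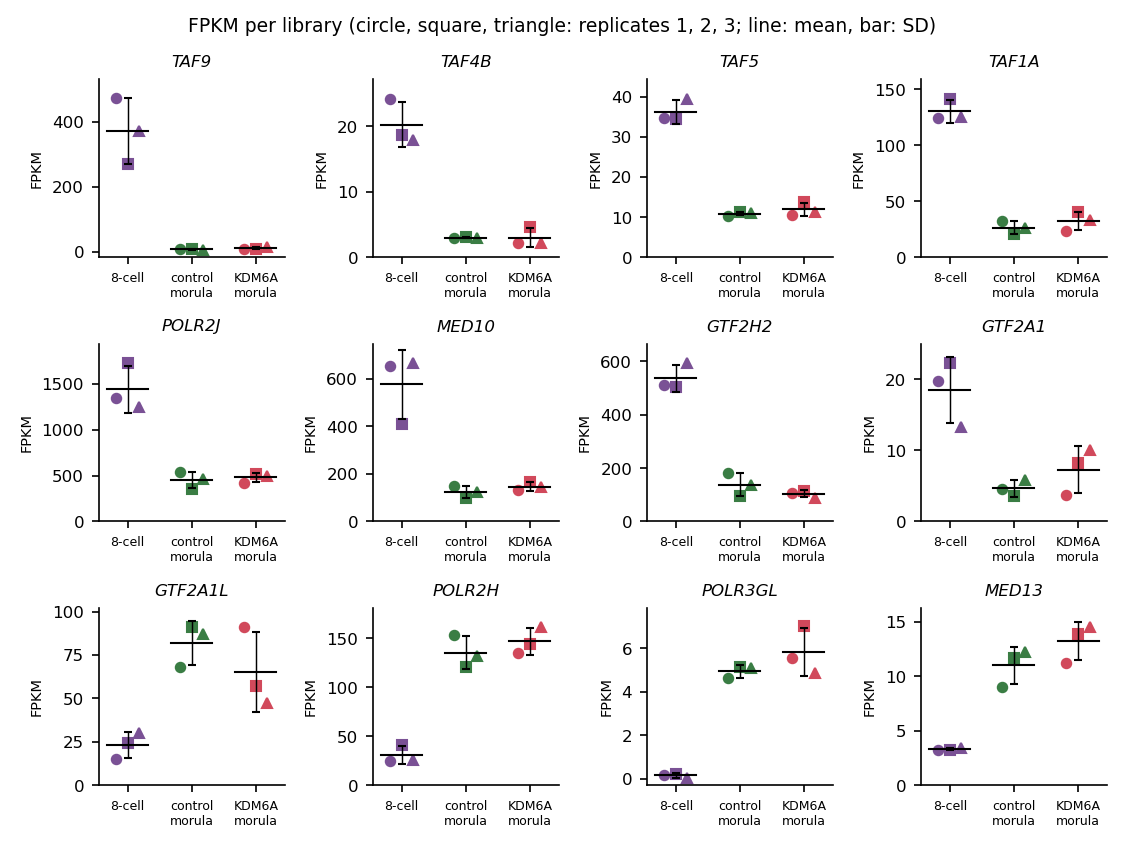
FPKM of 12 genes in each of the 9 libraries, with the mean (line) and SD (bar) of 3. TAF9, TAF4B, TAF5, TAF1A, POLR2J, MED10, GTF2H2 and GTF2A1 are higher in all 8-cell libraries than in any morula library, and GTF2A1L, POLR2H, POLR3GL and MED13 are lower in all of them.

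Among the factors that complete the polymerase II preinitiation complex, 2 of 8 tested were higher in morulae and 3 lower. Over all genes tested these shares were 42.7% and 27.1%. The large subunit of TFIIA showed opposite changes in its 2 genes. GTF2A1 was at 4.60, 3.51 and 5.79 FPKM in control morulae against 19.73, 22.35 and 13.32 in 8-cell embryos (log2 fold change -1.78, SE 0.272, limma adjusted p = 0.000261). GTF2A1L, its germ line version, was at 67.82, 91.13 and 86.86 against 15.43, 24.19 and 30.27 (1.81, SE 0.259, adjusted p = 0.000177). Neither gene overlapped between stages. The small TFIIA subunit GTF2A2 was higher at 351 ± 40.8 against 223 ± 38.5 (adjusted p = 0.0114), with 0.0813 under median-of-ratios scaling and 0.0546 without control replicate 3. Of TFIIE, which recruits TFIIH, GTF2E1 was lower at 14.4 ± 0.842 against 37.4 ± 6.01 (-1.31, adjusted p = 0.000326). GTF2E2 was called lower at 66.3 ± 4.23 against 100.1 ± 26.3 (adjusted p = 0.0379), a call that ended on omitting any 1 control library or 8-cell replicate 2, and with no filter (0.0638 to 0.119). GTF2B, the single-chain factor that positions the polymerase at the start site, was not called at 241 ± 35.4 against 188 ± 39.5 (adjusted p = 0.142). Both TFIIF genes, GTF2F1 and GTF2F2, also showed no call.

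The core of TFIIH, which opens promoter DNA and also repairs damaged DNA, was divided. GTF2H2 was at 180.49, 95.86 and 136.26 FPKM in control morulae against 513.48, 503.33 and 595.91 in 8-cell embryos, a 3.91-fold difference without overlap (log2 fold change -2.0, SE 0.233, limma adjusted p = 5.09e-05). GTF2H1 was also lower, at 31.4 ± 8.80 against 90.5 ± 17.1 (-1.51, adjusted p = 0.000359). GTF2H4, which contacts the XPB helicase, was higher at 19.28, 15.26 and 12.02 against 3.82, 6.53 and 3.71 (1.55, SE 0.279, adjusted p = 0.000726). GTF2H5, the smallest subunit, was higher at 259 ± 15.4 against 118 ± 18.5 (1.14, adjusted p = 0.000315). GTF2H3 was not called at 29.2 ± 9.37 against 37.2 ± 6.67.

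Both tested genes of the TFII-I family, DNA-binding proteins named for early work on the initiator, were higher in morulae. For this paragraph the background was 42.7% of all genes called higher and 27.1% lower. GTF2I was at 29.68, 33.37 and 27.99 FPKM against 19.53, 9.98 and 10.90 (log2 fold change 1.17, SE 0.266, limma adjusted p = 0.00293), and GTF2IRD1 at 6.30 ± 1.88 against 2.49 ± 0.849. GTF2IRD2 was below the filter, at 0.46, 0.25 and 0.35 in controls and 0.02, 0 and 0 in 8-cell embryos. Of TFIIIC, the polymerase III factor that binds inside transfer RNA genes, GTF3C1 and GTF3C2 were higher and GTF3C3 lower. GTF3C1, the largest subunit, was at 12.33, 7.95 and 5.21 FPKM against 2.64, 4.01 and 2.33 (1.2, SE 0.318, adjusted p = 0.00683). GTF3C3 was at 14.80, 17.68 and 16.71 against 42.45, 34.07 and 33.53 (-1.11, SE 0.202, adjusted p = 0.000765). None of these 3 genes overlapped between stages. GTF3A, which serves the 5S ribosomal RNA gene, was not called at 7.10 ± 1.64 against 4.31 ± 0.956 (adjusted p = 0.0576).

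Calls in Mediator are given by module, with no test between modules and a background of 42.7% of all genes called higher and 27.1% lower. Of 12 head genes, which contact the polymerase, 2 were higher and 5 lower in morulae. Of 8 middle genes 1 was higher and 2 lower, of 4 tested tail genes 3 were higher and none lower, and of 4 kinase module genes 1 was higher and 2 lower. Quantile normalization left 1 tail gene higher, and in the middle module gave none higher and 4 lower. The summed level of the head genes was 599 ± 76.0 FPKM in controls and 909 ± 131 in 8-cell embryos, while that of the 5 tail genes, which receive activators, was 15.0 ± 1.68 and 7.85 ± 0.935. These sums rest mostly on the abundant members of each module.

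MED10 of the middle module had the largest difference in Mediator. It was at 147.97, 99.98 and 122.23 FPKM in control morulae and at 655.33, 409.56 and 669.11 in 8-cell embryos, 4.68-fold apart (log2 fold change -2.20, SE 0.237, limma adjusted p = 3.27e-05). MED26, which joins only some Mediator complexes and recruits elongation factors, was lower at 2.64 ± 0.759 against 6.95 ± 1.2 (-1.14, adjusted p = 0.00298). MED9 was called higher at 18.7 ± 2.06 against 10.1 ± 3.23 (0.86, adjusted p = 0.015), and lost the call under quantile normalization (0.0591), median-of-ratios scaling (0.0527) and without control replicate 2 (0.0515). MED14, the backbone that joins the modules, was at 9.58 ± 0.903 against 12.9 ± 1.59 FPKM, and MED1, the contact of nuclear receptors, at 16.2 ± 1.57 against 15.8 ± 2.11. Neither was called (adjusted p = 0.129 and 0.859), although MED14 was called lower under each of the 3 rescalings (0.0144 to 0.0497).

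In the head, MED28 was at 201.47, 106.16 and 152.73 FPKM in control morulae against 385.72, 293.55 and 342.19 in 8-cell embryos (log2 fold change -1.18, SE 0.241, limma adjusted p = 0.00154). MED11 went the other way, at 28.12, 21.30 and 22.89 against 8.68, 4.88 and 7.19 (1.69, SE 0.253, adjusted p = 0.000232). The stages did not overlap for either gene. MED6 and MED8, further head subunits, were lower in morulae at 117.5 ± 15.0 against 224 ± 66.0 and 51.3 ± 2.36 against 98.7 ± 16.7. MED20 was called lower at 3.16 ± 1.25 against 6.96 ± 1.76 (adjusted p = 0.0136), with 0.0707 without control replicate 3. In the tail MED15, which binds activators directly, was at 4.29 ± 0.889 against 1.63 ± 0.541 (1.02, adjusted p = 0.00494, and 0.0502 under quantile normalization). MED16 was at 2.09 ± 0.191 against 0.583 ± 0.263 (0.98, adjusted p = 0.00229). It passed the expression filter only through the control libraries, so this adjusted p is no independent support for the difference.

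The kinase module, which binds Mediator reversibly and blocks its contact with the polymerase, has a pair of paralogs at each of 2 positions. MED13, which tethers the module, was at 9.05, 11.72 and 12.26 FPKM in control morulae and at 3.26, 3.27 and 3.41 in 8-cell embryos (log2 fold change 1.47, SE 0.23, limma adjusted p = 0.000308). MED13L was not called at 21 ± 3.39 against 15.3 ± 1.87. MED12, which activates the kinase, was called lower at 11.6 ± 1.41 against 18.5 ± 4.03 (adjusted p = 0.0386), and that call was lost without any 1 control library or without 8-cell replicate 2 or 3 (0.0639 to 0.118). MED12L was at 16.26, 10.53 and 11.34 against 33.27, 26.91 and 45.36, without overlap (-1.39, SE 0.259, adjusted p = 0.000885).

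Shares within paralog pairs describe these exchanges on 1 scale, with no test of the share itself. TAF4B made up 30.1% ± 5.15 of the summed FPKM of TAF4 and TAF4B in controls, 33.4% ± 9.69 in KDM6A morulae and 76.3% ± 5.54 in 8-cell embryos. The share of TAF7L in its pair with TAF7 was 0.263% ± 0.359, 0.0515% ± 0.0448 and 10.0% ± 7.20. GTF2A1L held 94.6% ± 1.5, 88.7% ± 6.88 and 55.1% ± 13.1 of its pair. TAF4B and TAF7L, both known from the germ line, thus had their larger share in 8-cell embryos, whereas GTF2A1L had its larger share in morulae. TAF5L, the SAGA counterpart of TAF5, held 63.2% ± 5.26, 57.6% ± 7.73 and 27.7% ± 1.65, and TAF6L, that of TAF6, held 61.6% ± 5.62, 55.5% ± 13.9 and 74.3% ± 7.61. The TAF6 pair lies near 1 FPKM, where shares are imprecise. MED13L held 65.6% ± 0.280, 61.9% ± 1.72 and 82.1% ± 1.36, and MED12L 52.0% ± 7.71, 53.3% ± 6.46 and 65.3% ± 6.04. TAF9B held 34.9% ± 10.5, 41.1% ± 12.8 and 1.05% ± 0.139 of its pair with TAF9, and that share carries the uncertainty of the TAF9 row. TAF9B alone was not called, at 4.40 ± 3.06, 7.04 ± 3.18 and 4.06 ± 1.61 FPKM. It overlaps PGK1 in the RefSeq annotation, a gene at 273.6 ± 33.3, 286.5 ± 45.6 and 152.5 ± 3.62 FPKM. The division of reads between TAF9B and PGK1 was not analysed here. TAF4, TAF5, TAF6, TAF6L and MED12L also overlap other genes there.

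**Figure D4:**
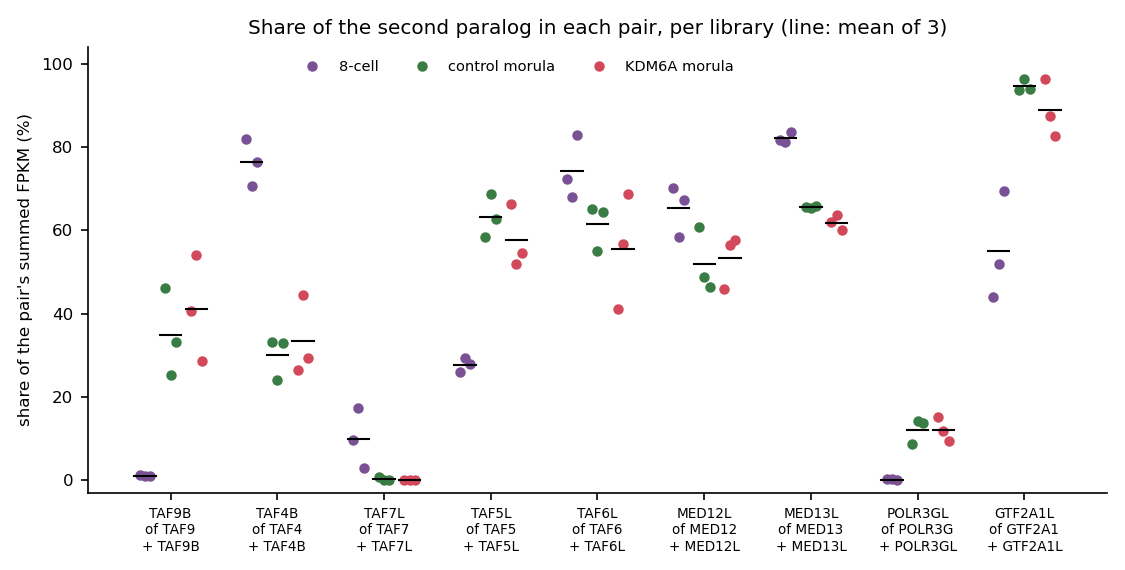
Share of the second-named gene in the summed FPKM of 9 paralog pairs, in percent, 1 point per library with the mean of 3 as a line. Control and KDM6A morulae overlap or lie close in each pair, while 8-cell libraries lie apart from both morula groups for TAF9B, TAF4B, TAF7L, TAF5L, MED13L, POLR3GL and GTF2A1L.

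KDM6A morulae were set against the same 8-cell libraries, so the 2 stage comparisons share those libraries and are given side by side only. Of 98 genes tested, 25 were higher and 26 lower in KDM6A morulae by limma, where 41.1% of all 10024 genes tested were called higher and 25.6% lower. Together these were 52.0% against 66.7% of all genes, and 56.1% against 69.9% had an unadjusted p under 0.05. Groups did not overlap in 34 genes higher and 33 lower, where the background was 43.2% and 28.2%, or 71.3% in all. The median log2 fold change was 0.13 over these genes and 0.34 over all. With quantile normalization 20 (20.4%) were called higher and 31 (31.6%) lower, against 33.1% and 32.4% of all genes. TAF9 (log2 fold change -5.09), TAF4B (-2.44), GTF2H2 (-2.37), TAF1A (-2.0) and MED10 (-1.95) were lower in KDM6A morulae, and POLR3GL (2.56), POLR2H (2.24), MED11 (1.89) and MED13 (1.72) were higher, with adjusted p from 3.63e-07 to 0.000135. TAF15 was also called higher (2.59, adjusted p = 0.00344), at 8.26, 50.24 and 70.35 FPKM in KDM6A morulae against 4.20, 3.23 and 6.08 in 8-cell embryos. POLR3GL passed the expression filter here only through the KDM6A libraries, so its adjusted p is no independent support.

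The comparison of KDM6A-injected with control morulae asks whether supplying KDM6A, which removes a silencing mark from histone H3, changes the machinery. None of the 98 genes tested passed an adjusted p of 0.05 in limma, against 16 of 9777 genes (0.164%, with 0.123% higher and 0.0409% lower). These 98 differ from those of the stage comparisons, since TAF6 was tested here and TAF7L was below the filter. All alternatives that kept the 6 libraries also gave 0. At an unadjusted p under 0.05 there were 7 genes (7.14%), 5 of them higher, against 12.7% of all genes. Groups did not overlap in 14 genes (14.3%), 4 higher and 10 lower, against 15.7% of all genes (7.1% higher and 8.61% lower). The median log2 fold change was 0.03 over the 98 genes and -0.01 over all. For 88 of the 98 the 95% interval of the fold change lay within 1 log2 unit of 0 on either side, reaching a median of 0.45 to each side of the estimate. In the other 10 it reached further, and these were GTF2A1, GTF2IRD1, GTF3C1, MED12L, MED20, POLR2L, TAF10, TAF15, TAF3 and TAF9B.

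The lowest p-values belonged to genes of several complexes. MED20, a head subunit that pairs with MED18, was at 4.56, 2.76 and 2.15 FPKM in controls and 5.54, 7.27 and 7.37 in KDM6A morulae, without overlap (log2 fold change 0.93, SE 0.253, limma adjusted p = 0.239). GTF2E2 of TFIIE was at 68.49, 61.38 and 68.92 against 53.62, 40.99 and 37.88, also without overlap (-0.59, SE 0.18, adjusted p = 0.281). POLR2L, a small subunit of all 3 polymerases, was at 192.07, 168.96 and 249.97 against 214.91, 357.45 and 368.46 (0.60, adjusted p = 0.32). For POLR2L only KDM6A replicate 1 fell within the range of the controls. TAF10 was at 38.45, 64.89 and 42.84 against 40.92, 26.52 and 24.02 (-0.66, adjusted p = 0.321), where again replicate 1 alone overlapped. MED12 was at 10.51, 11.02 and 13.16 against 15.01, 19.19 and 15.94, with all KDM6A libraries above all controls (0.49, adjusted p = 0.337). GTF3C3 was at 14.80, 17.68 and 16.71 against 10.18, 13.81 and 11.93, with all KDM6A libraries below (-0.43, adjusted p = 0.395). MED27 (0.46), POLR2G (-0.29) and GTF2A2 (-0.31) complete the 10 lowest, with adjusted p from 0.36 to 0.398.

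TAF15 had the largest fold change of the 98 in this comparison and the least uniform one. Control libraries gave 12.96, 8.48 and 9.35 FPKM, and injected libraries 8.26, 50.24 and 70.35. KDM6A replicate 1 stood below every control and replicates 2 and 3 far above them (log2 fold change 1.54, SE 0.593, limma adjusted p = 0.324, exact two-sided permutation p = 0.4 where 0.1 is the smallest possible). KDM6A replicate 1 was also the injected library with the lowest KDM6A level. Without it, 6 genes were called, TAF15 (2.44, adjusted p = 0.0023), POLR2L (0.85, 0.0244), MED20 (1.04, 0.0443) and MED12L (0.84, 0.0493) higher and GTF2E2 (-0.73, 0.0283) and TAF10 (-0.89, 0.0481) lower, and of all 9596 genes tested 365 were called higher and 360 lower. No gene of the 98 was called with any other library left out.

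**Figure D5:**
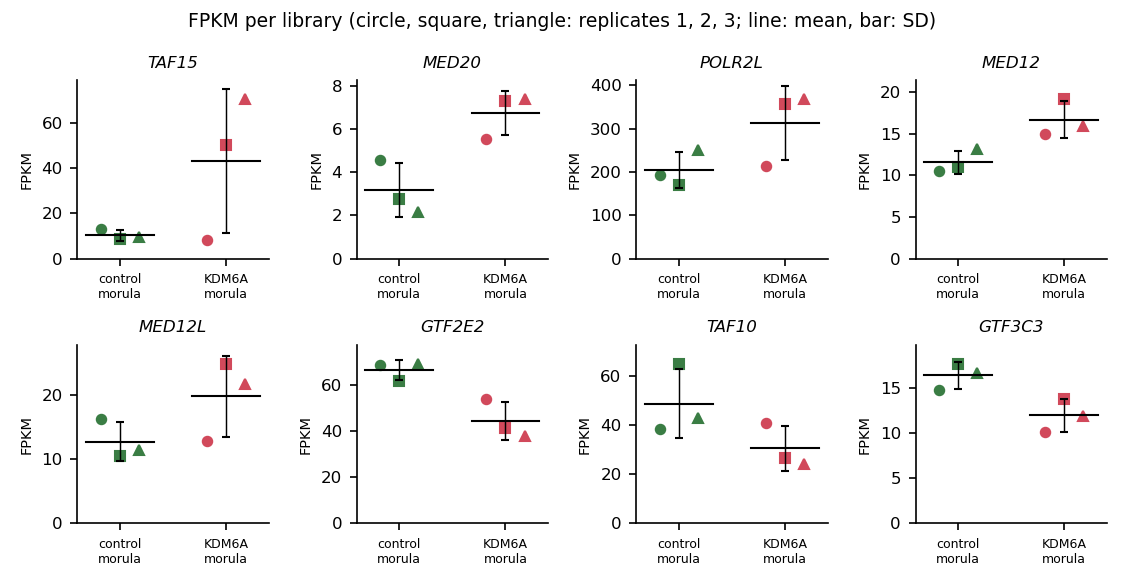
FPKM of 8 genes in the 3 control and 3 KDM6A morula libraries, with the mean (line) and SD (bar). KDM6A replicate 1 (circle) lies among or near the controls for TAF15, POLR2L, MED12L and TAF10, and none of the 8 genes passed an adjusted p of 0.05.

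The other genes that work with this machinery were read from a list of 55, of which 54 have a row and TBP was not analysed here. Of 48 tested in control morulae against 8-cell embryos, 12 were higher and 19 lower (9 and 23 under quantile normalization), with a median log2 fold change of -0.06. The shares over all genes were 42.7% higher and 27.1% lower, and 35% and 34% under quantile normalization. In KDM6A morulae against 8-cell embryos 12 were higher and 15 lower, where 41.1% and 25.6% of all genes were called, and no gene of the 46 tested was called between the morula groups. TBPL1, a relative of the TATA-binding protein, was at 54.1 ± 30.1 FPKM in control morulae against 550.5 ± 18.5 in 8-cell embryos, a 10.2-fold difference (-3.46, SE 0.329, limma adjusted p = 1.62e-05). Its controls were uneven, at 87.56, 29.18 and 45.60, but all lay far below the 8-cell libraries. ELL2, an elongation factor, was at 13.3 ± 0.695 against 92.1 ± 17.1 (-2.69, adjusted p = 4.54e-06). SNAPC5 of the complex that starts small nuclear RNA genes was at 22.5 ± 4.93 against 93.5 ± 17.6 (-2.01, adjusted p = 4.32e-05). CDK7, the kinase of TFIIH, was lower at 56.1 ± 8.92 against 127 ± 6.97, whereas its helicase ERCC2 was higher at 8.60 ± 0.883 against 1.43 ± 0.481 (1.99, adjusted p = 6.95e-05). NELFCD, part of a complex that holds the polymerase paused, was 5.65-fold higher at 21.3 ± 3.34 against 3.77 ± 0.755 (2.23, adjusted p = 3.03e-05), and POLRMT, the mitochondrial RNA polymerase, 4.46-fold higher at 18.2 ± 5.28 against 4.07 ± 1.01. For polymerase I, the subunit gene TWISTNB was lower at 74.8 ± 14.2 against 235 ± 43.8 (-1.64, adjusted p = 0.00011) and the initiation factor RRN3 at 20.3 ± 2.64 against 53.2 ± 4.60 (-1.35, adjusted p = 0.000186). Not all listed polymerase I genes were lower. CD3EAP was at 9.69, 8.11 and 7.5 FPKM in control morulae against 5.26, 6.43 and 5.07 in 8-cell embryos. ZNRD1 and UBTF overlapped between these stages.

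Spread within groups was modest for most of the machinery. Among genes that reached 5 FPKM, the median coefficient of variation over 3 libraries was 13.9% in KDM6A morulae, 14.75% in controls and 18.9% in 8-cell embryos. It exceeded 50% in 4 cases, POLR2K in 8-cell embryos (96.6%), TAF15 in KDM6A morulae (73.8%), TAF9B in controls (69.7%) and TAF7L in 8-cell embryos (66.4%). In the RefSeq annotation 25 of the 103 genes overlap another protein-coding gene. They include 5 of the 26 genes called higher in control morulae than in 8-cell embryos (MED16, MED24, POLR3C, POLR3GL and TAF10). They also include 7 of the 28 called lower (MED20, MED12L, POLR3G, GTF2E1, GTF2E2, TAF5 and TAF9). Over all genes tested 42.7% were called higher and 27.1% lower. Whether counting used strand was not given, so reads of these genes and their neighbours may not be fully separate.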

How the data were processed

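RNA sequencing of 9 libraries in 3 groups of 3 was analysed from FPKM values deposited by the authors, per the file headers, as 1 file per library. The submitters' processing notes name the UMD3.1 build, RSEM 1.2.12, Bowtie2 2.2.5, StringTie 1.0.4, HISAT 0.1.6 and bcl2fastq 2.16, with no role or order. Depth is unknown, so precision comes from the spread between libraries. In control morula replicate 1, 3038 rows carry no gene identifier and were left out of the fits. They remained in the summed FPKM of that library, and so in the share that the machinery held there.

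For every comparison only its 6 libraries entered the fit, made with limma 3.58.1 (R 4.3.3, trended prior variance) on log2(FPKM + 1), which understates the fold changes of low genes. Genes at 1 FPKM or more in at least 3 of the 6 libraries were tested, and p-values were adjusted over all of them by the Benjamini-Hochberg method (threshold 0.05). Folds written as "-fold" are ratios of mean FPKM. Python 3.11.15 with numpy 2.4.6 and pandas 2.3.3 served for the tables, and matplotlib 3.10.9 for the plots.

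The fit was tested on simulated data with 200 changed genes. At true changes of 1 and 2 log2 units it recovered 54% and 92% in KDM6A against control morulae (8 false calls among 9777 genes). In control morulae against 8-cell embryos it recovered 44% and 82% (7 among 10048), and in KDM6A morulae against 8-cell embryos 26% and 91% (3 among 10024). The changed genes were drawn from better expressed genes only, so recovery of low genes was not tested. In the data 69.8% and 66.7% of genes were called in the 2 stage comparisons. Recovery with so few changed genes therefore does not give the power of those 2 fits. Between the morula groups only 16 of 9777 genes were called, so recovery with 200 changed genes does not give the power of that fit either. The simulated noise was drawn separately for each gene, so a library that deviates in many genes at once was not simulated.

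The genes, the lists and the tests were chosen with earlier results of these data known. Named by rule are the largest rise and fall of each complex between control morulae and 8-cell embryos, the 10 lowest p-values between the morula groups, paralog pairs, catalytic pairs with MED14, MED1, TAF1 and GTF2B, and the 5 highest and 5 lowest mean levels. Other genes were named after their values were seen, among them POLR2H, POLR3C, TAF1B, TAF1D, TAF3, TAF11, GTF2E1, GTF2H1, GTF2H5, GTF2IRD1, MED6, MED8, MED16 and MED26. Alternatives changed the scaling (quantile normalization, TPM, median of ratios), the pseudocount (0.1, 0.5) and the filter (none, or 5 FPKM), put all 9 libraries into a single model, blocked on replicate number, or omitted 1 library at a time. RefSeq annotation of ARS-UCD2.0, another build than the files', served for names (102 of 103 genes matched) and overlapping neighbours only, so no coordinates are given.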

Additional observations from a re-analysis of the deposited data

How the results depend on the processing

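The direction of every called gene was kept in each alternative run. Of 54 calls between control morulae and 8-cell embryos, 38 (16 higher, 22 lower) passed in every alternative that tested them, and the number of calls ran from 42 to 59 with 1 library left out and from 48 to 57 otherwise. Of 51 calls between KDM6A morulae and 8-cell embryos 40 were kept, with 40 to 51 calls with 1 library left out. Both kept sets include MED16, POLR3GL and TAF7L, which only 11 alternatives tested, against 15 for most genes. These 3 genes went untested at the 5 FPKM filter and when a library of their higher group was left out. Their place among the kept calls is therefore no support. Between the morula groups the number of calls ran from 0 to 6 with 1 library left out. The 6 came without KDM6A morula replicate 1, for which the cause was not tested, and all other alternatives gave 0. With a library left out, genes near the filter could drop out of testing. With the replicate number as a block, calls were 0, 55 (27 higher, 28 lower) and 50 (26 higher, 24 lower) in the order control against KDM6A, control against 8-cell and KDM6A against 8-cell. Same-numbered libraries did not deviate together (correlations -0.216 to 0.133, -0.038 to 0.003 and -0.087 to 0.082). Libraries of different number ran as widely, from -0.183 to 0.285 between control and KDM6A morulae. With 3 libraries per group this cannot decide whether the numbers pair libraries. Unknown depth limits genes near 1 FPKM, such as POLR2A, TAF6 and MED25.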
